A study of Mus musculus with 2 samples.

Results

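The genes described here are 36 genes of the interferon response and of MHC class I antigen presentation, out of 28692 genes counted in cells of mouse pancreatic islets. They were taken by gene symbol from their known function, with earlier results of these data known, and all 36 were present in both count matrices. By role they are 5 transcription factors (Stat2, Irf1, Irf7, Irf9, Nlrc5), 2 feedback inhibitors (Socs1, Usp18), 14 antiviral effectors (Isg15, Ifit1, Ifit2, Ifit3, Oasl2, Rsad2, Bst2, Ifitm2, Ifitm3, Ifi27, Xaf1, Ly6e, Ifih1, Rtp4), 4 GTPases (Gbp2, Gbp7, Igtp, Irgm1), 3 class I chains (B2m, H2-K1, H2-D1), 5 immunoproteasome genes (Psmb8, Psmb9, Psmb10, Psme1, Psme2) and 3 peptide-loading genes (Tap1, Tap2, Tapbp). The series concerns BAF60C, a subunit of chromatin-remodelling complexes encoded by Smarcd3, in type 2 diabetes. Its groups are islets of flox/flox mice and islets of mice labelled BcBKO, described as an ablation in beta cells with Cre recombinase under the Pdx1 promoter. That promoter is active in the embryonic pancreas as well as in adult beta cells. Each group is 1 droplet library of islet cells pooled from at least 3 mice, so the spread between mice is unknown, no test was possible, and every interval given covers counting error only. The floxed exons and the strain, age and sex of the mice are not given in the sources used here, and the labels name no Cre for the flox/flox mice.

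Interferons are secreted proteins that signal through cell-surface receptors and JAK kinases to transcription factors of the STAT and IRF families. Type I interferons act largely through a complex of STAT proteins with IRF9 that binds the interferon-stimulated response element, and interferon gamma acts through STAT dimers at gamma-activated sites and through IRF1. Among the genes they raise are those that make peptides in the immunoproteasome, carry them into the endoplasmic reticulum through TAP and load them on class I heavy chains paired with beta-2-microglobulin, the product of B2m. In islets, class I molecules are how beta cells are seen by cytotoxic T cells, and raised class I on beta cells is a known feature of type 1 diabetes.

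Promoter windows are printed for 6 members, 1 or more from each of the roles that the results turn on: the class I chains B2m and H2-K1, the transporter gene Tap1, the factor gene Irf1, the effector gene Rsad2 and the GTPase gene Irgm1. Each runs from 250 bases before to 50 bases after the gene's start, 5′ to 3′ on the gene's strand, from RefSeq on GRCm38.p6. Capitals mark matches, on either strand, to 1 of 3 motifs: the core of the interferon-stimulated response element (GAAA, 2 bases of any kind, GAAA), the gamma-activated site (TTCNNNGAA) and a kappaB site, bound by NF-kappaB (GGGGA directly followed by TTCCC).
B2m, chr2:122147437-122147736, plus strand: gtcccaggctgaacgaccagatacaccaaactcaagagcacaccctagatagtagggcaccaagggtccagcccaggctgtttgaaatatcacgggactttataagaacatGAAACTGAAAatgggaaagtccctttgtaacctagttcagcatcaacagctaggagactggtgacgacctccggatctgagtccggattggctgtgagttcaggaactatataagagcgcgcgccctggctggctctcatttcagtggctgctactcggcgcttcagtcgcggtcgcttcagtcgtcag
H2-K1, chr17:34000298-34000597, minus strand: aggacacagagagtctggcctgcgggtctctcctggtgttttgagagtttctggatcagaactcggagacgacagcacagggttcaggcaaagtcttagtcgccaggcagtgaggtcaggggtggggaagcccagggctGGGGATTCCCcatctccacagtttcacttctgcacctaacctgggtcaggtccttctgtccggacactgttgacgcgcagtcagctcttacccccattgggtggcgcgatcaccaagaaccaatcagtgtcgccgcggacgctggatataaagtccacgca
Tap1, chr17:34187306-34187605, plus strand: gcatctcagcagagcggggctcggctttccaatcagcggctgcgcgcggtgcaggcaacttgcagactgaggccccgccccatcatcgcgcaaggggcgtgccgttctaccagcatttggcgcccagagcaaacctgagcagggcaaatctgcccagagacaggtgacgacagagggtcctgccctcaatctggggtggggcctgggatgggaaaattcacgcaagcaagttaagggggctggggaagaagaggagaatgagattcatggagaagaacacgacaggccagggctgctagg
Irf1, chr11:53769764-53770063, plus strand: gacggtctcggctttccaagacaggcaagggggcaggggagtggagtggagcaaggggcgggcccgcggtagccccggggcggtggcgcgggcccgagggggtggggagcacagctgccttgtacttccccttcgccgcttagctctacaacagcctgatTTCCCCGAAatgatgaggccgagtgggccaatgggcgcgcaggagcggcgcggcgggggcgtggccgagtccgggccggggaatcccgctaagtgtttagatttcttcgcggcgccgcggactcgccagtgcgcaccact
Rsad2, chr12:26456403-26456702, minus strand: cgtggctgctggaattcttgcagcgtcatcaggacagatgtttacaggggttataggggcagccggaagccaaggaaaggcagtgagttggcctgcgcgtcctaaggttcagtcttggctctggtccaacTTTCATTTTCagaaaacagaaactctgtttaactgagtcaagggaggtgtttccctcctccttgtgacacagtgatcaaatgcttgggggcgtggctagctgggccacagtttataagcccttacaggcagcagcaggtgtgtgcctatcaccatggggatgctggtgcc
Irgm1, chr11:48871371-48871670, minus strand: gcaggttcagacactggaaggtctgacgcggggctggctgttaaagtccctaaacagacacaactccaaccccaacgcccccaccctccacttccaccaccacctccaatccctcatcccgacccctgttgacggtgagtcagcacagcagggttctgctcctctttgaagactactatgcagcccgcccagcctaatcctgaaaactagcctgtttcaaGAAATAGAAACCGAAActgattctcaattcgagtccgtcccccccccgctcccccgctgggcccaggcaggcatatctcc

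Windows were found for 30 of the 36 members, the exceptions being Ifi27, Tap2, Nlrc5, Usp18, Ly6e and Rtp4. The response element core was present in 16 of the 30 (53.3%), against 3.44% of 32851 promoter windows of the same length. It lay at bases -139 to -130 from the start of B2m and at -120 to -111 of Rsad2. In Irgm1 it occurred as a pair of overlapping matches at -30 to -21 and -24 to -15. TTCNNNGAA was present in 7 of the 30 (23.3%), against 8.30% of all windows, among them Irf1 at -90 to -82. In Bst2 and Ifitm3 matches of the 2 motifs overlapped. The kappaB letters were present in H2-K1 at -111 to -102 and in H2-D1 (6.67% of the 30), against 0.107% of all windows. In Tap1 none of the 3 motifs was matched; its window shares 275 of 300 bases with that of Psmb9, which runs on the other strand. A match describes these letters alone and not a bound site.

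The flox/flox library held 9438 barcodes with 167670996 UMIs (unique molecular identifiers, each a counted RNA molecule), and the library labelled BcBKO held 10775 barcodes with 178647270 UMIs. Of these, 7568 and 8504 barcodes were kept, and 23 barcode sequences occurred in both libraries. Smarcd3, read from the title as the targeted gene, had 45 UMIs (0.374 CPM) in flox/flox beta barcodes and 71 (0.610 CPM) in those of the library labelled BcBKO. CPM here is UMIs of a gene per 1000000 UMIs of the class. The label is thus not borne out by this count, although counts of 3′ ends cannot show a deletion that lies elsewhere in the gene. Barcodes were put in 6 classes by their hormone and marker UMIs: 2750 and 3058 beta, 415 and 714 alpha, 281 and 371 delta, 1763 and 1516 endothelial, 794 and 665 mural (pericytes and smooth muscle), and 463 and 367 macrophage. The mural rule did not separate mural from endothelial cells: 569 of 794 (71.7%) and 498 of 665 (74.9%) mural barcodes also met the endothelial rule. Those barcodes carried Plvap, an endothelial gene, at 4119 and 3919 CPM and Notch3, a mural gene, at 279 and 289 CPM. The 223 and 163 barcodes that met the mural rule alone had Notch3 at 693 and 719 CPM and Plvap at 10.5 and 20.2 CPM, and they are used here for mural cells unless the whole rule is named. Every class held RNA of beta cells: the 7 beta markers summed to between 22472 and 60835 CPM in the other 5 classes, over barcodes of exactly 1 class. The 6 acinar markers, from digestive enzyme cells, were lower in the library labelled BcBKO in every class, for instance 129 and 21.6 CPM in beta barcodes.

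In CPM, the class I chains were present in beta cells at a small share of their level in endothelial cells and macrophages. H2-K1, a class I heavy chain, had 168 CPM in flox/flox beta barcodes and 176 CPM in beta barcodes labelled BcBKO, against 1689 and 1546 CPM in endothelial and 1371 and 1286 CPM in macrophage barcodes of exactly 1 class. H2-D1, the other classical heavy chain gene, had 103 and 99.4 CPM in beta and 2235 and 1911 CPM in endothelial barcodes. B2m, the light chain that every class I heavy chain needs, had 30.5 and 38.5 CPM in beta, 2183 and 2047 CPM in endothelial and 2230 and 2335 CPM in macrophage barcodes. The step from beta to endothelial cells thus differed between the chains, at 10.1-fold and 8.81-fold for H2-K1, 21.8-fold and 19.2-fold for H2-D1, and 71.5-fold and 53.1-fold for B2m. Reads of the class I heavy chains can be shared between near-identical copies, and these genes vary between strains, so the split between H2-K1 and H2-D1 is uncertain. The plot of levels by class shows all 36 members.

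**Figure D1:**
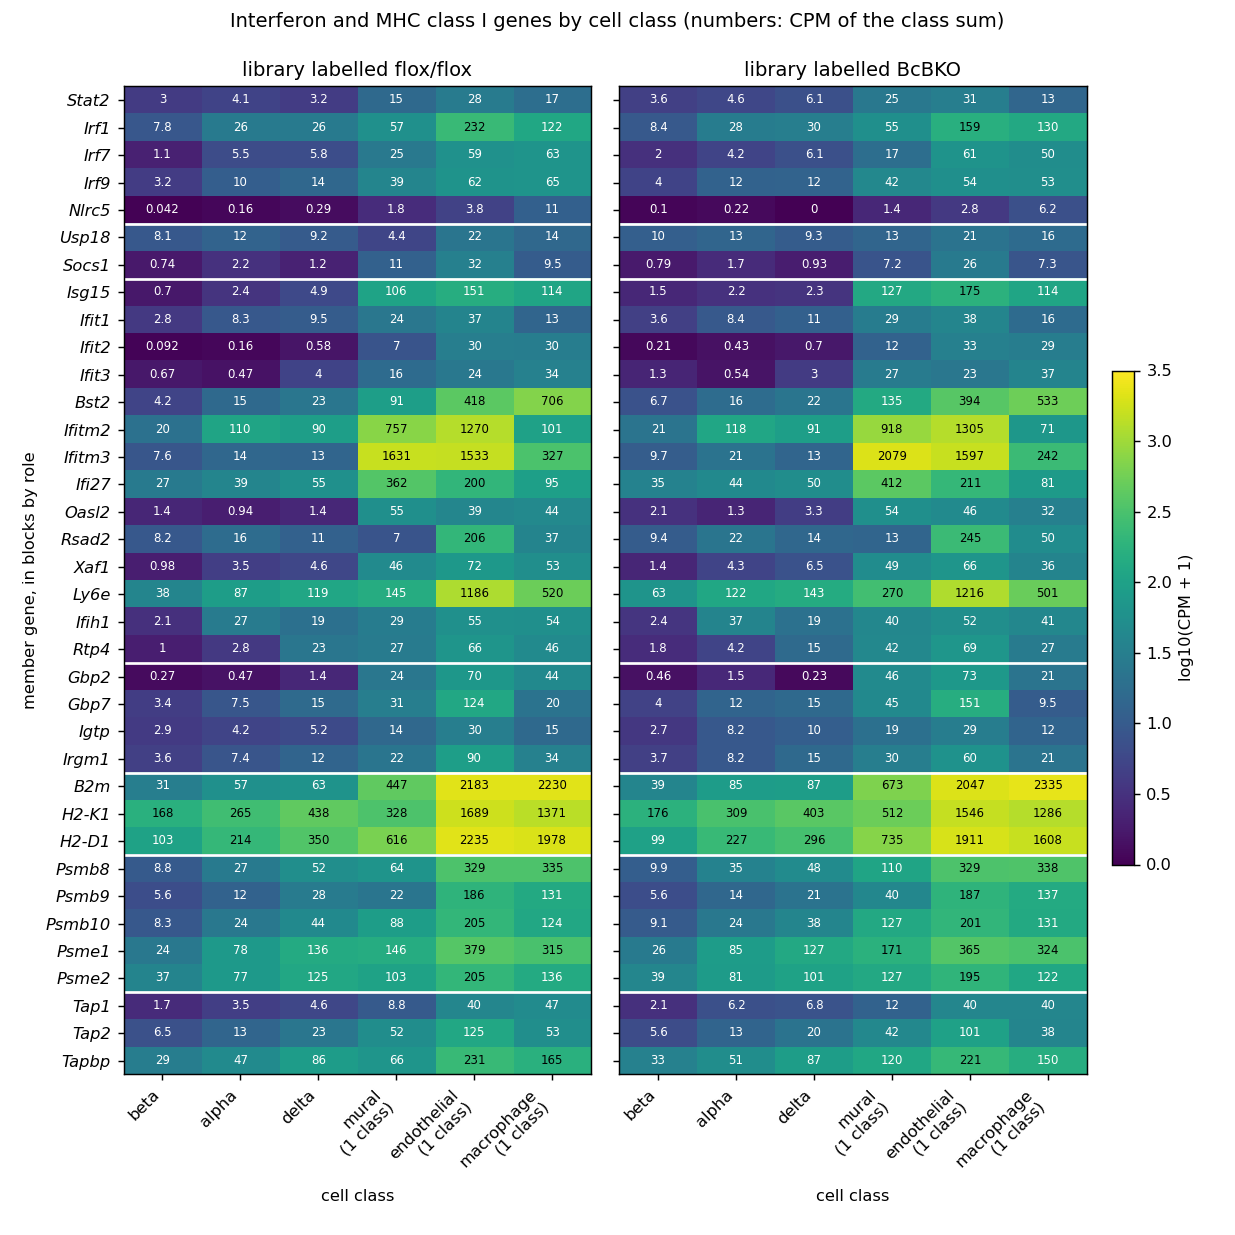
CPM of each member (rows, in blocks by role from transcription factors at the top to peptide loading at the bottom) in each cell class (columns) of each library (panels), with the colour on a log10(CPM + 1) scale; mural, endothelial and macrophage columns hold barcodes of exactly 1 class. The beta column is dark in nearly every row, and B2m runs from 30.5 CPM in beta to 2230 CPM in macrophage barcodes of the flox/flox library.

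At equal total depth the share of cells with a class I transcript differed in the same direction. Such thinning keeps the scale of CPM, on which insulin fills much of a beta cell's UMIs. It is thus not a separate measure of transcripts per cell. With each cell thinned to 2000 UMIs, 28.4% of flox/flox beta cells and 29.0% of beta cells labelled BcBKO held a UMI of H2-K1, against 91.2% and 88.9% of endothelial and 90.7% and 85.9% of macrophage cells. For B2m the thinned shares were 5.56% and 7.78% of beta cells against 96.3% and 95.4% of endothelial cells. Without thinning, at median depths of 38461.5 and 33171.5 UMIs, 99.3% and 98.9% of beta cells held a UMI of H2-K1, so that nearly every beta cell had this transcript.

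Other endocrine cells and mural cells lay between these extremes. Alpha barcodes had H2-K1 at 265 and 309 CPM and delta barcodes at 438 and 403 CPM. Mural barcodes had H2-K1 at 328 and 512 CPM and B2m at 447 and 673 CPM, well under the endothelial levels. Over all 36 members, the median ratio of delta to beta was 3.52 for flox/flox and 2.98 for the library labelled BcBKO, beside medians of 2.27 and 2.17 over all genes at 20 CPM or more in either class. For alpha to beta the medians were 2.09 and 2.26, beside 1.75 and 1.82 over all genes.

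The immunoproteasome is the proteasome form whose 3 catalytic subunits, encoded by Psmb8, Psmb9 and Psmb10, replace the constitutive ones encoded by Psmb5, Psmb6 and Psmb7. In beta barcodes there were 12.6 Psmb8 UMIs per 100 Psmb5 UMIs for flox/flox and 12.8 for the library labelled BcBKO. Endothelial barcodes of exactly 1 class had 200.4 and 200.2 per 100, and macrophage barcodes had 369 and 328. Psmb9 followed with 6.6 and 5.9 per 100 Psmb6 UMIs in beta, 102 and 99.2 in endothelial and 105 and 103 in macrophage barcodes. Psmb10 differed less between classes, with 28.0 and 28.5 per 100 Psmb7 UMIs in beta and 211 and 234 in endothelial barcodes. Delta cells, by the whole rule, stood above beta cells in all 3 pairs, with Psmb8 at 42.8 and 42.3, Psmb9 at 15.8 and 12.1 and Psmb10 at 69.7 and 60.3 per 100. These values set UMI numbers of different genes side by side within a class and are of use only for comparing classes, since capture can differ between genes. Psme1 and Psme2, which encode the PA28 activator cap, were less unequal: Psme2 had 37.2 and 38.9 CPM in beta and 205 and 195 CPM in endothelial barcodes, and Psme1 had 24.3 and 26.2 CPM and 379 and 365 CPM.

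**Figure D2:**
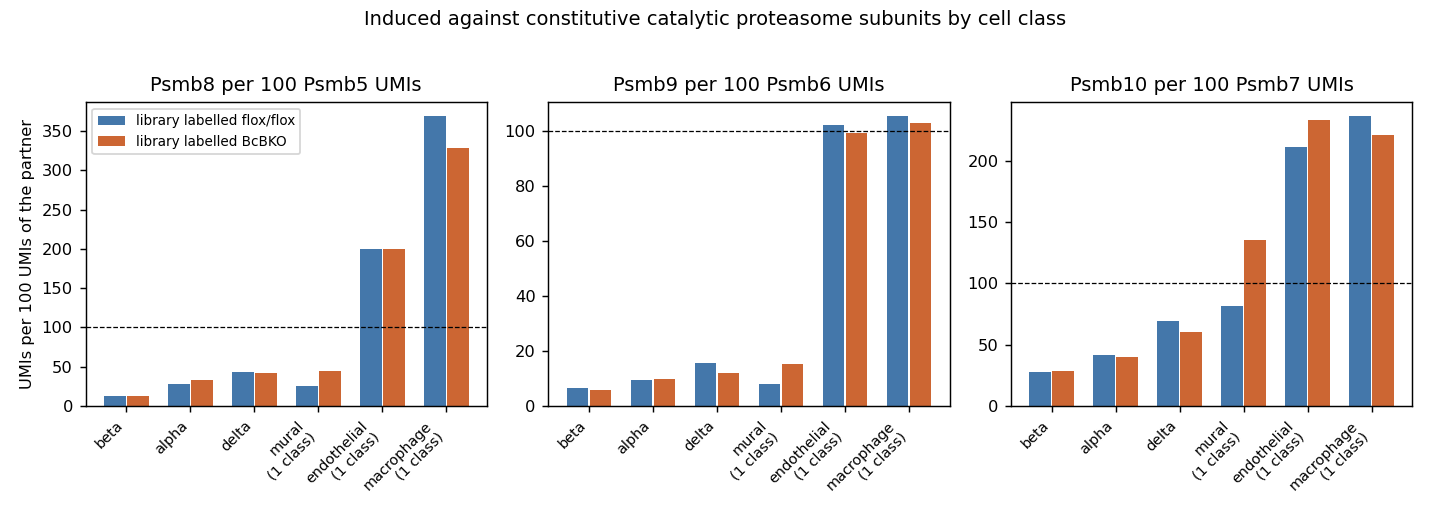
UMIs of each induced catalytic proteasome gene per 100 UMIs of its constitutive partner (y axis) by cell class (x axis), 1 bar per library, with a dashed line at 100. Psmb8 stands near 12.6 in beta and above 200 in endothelial and macrophage barcodes, and the mural bars are higher in the library labelled BcBKO in each panel. Among mural barcodes with fewer than 10 UMIs of Acta2, a gene of contractile cells, only Psmb10 was higher there, with 100 and 122 per 100. Psmb8 then had 40.6 and 40.2 and Psmb9 14.7 and 10.8 per 100.

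Of the peptide-loading genes, Tap1, a subunit of the peptide transporter, had 1.66 and 2.10 CPM in beta, 39.8 and 39.8 CPM in endothelial and 47.2 and 39.8 CPM in macrophage barcodes. Tap2, its partner, had 6.47 and 5.61 CPM in beta and 125 and 101 CPM in endothelial barcodes. Tapbp, which encodes tapasin, the protein that holds empty class I molecules at the transporter, had 29.4 and 33.1 CPM in beta and 231 and 221 CPM in endothelial barcodes. The general chaperones of the same step did not share the pattern: Canx (calnexin) had 184 and 209 CPM in beta and 185 and 193 CPM in endothelial barcodes, and Pdia3 had 336 and 349 CPM and 386 and 387 CPM.

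The transcription factors were all low in beta cells. Irf1, a factor induced by interferon gamma, had 7.83 and 8.41 CPM in beta barcodes and was highest in endothelial barcodes at 232 and 159 CPM. Irf7, which amplifies type I interferon production, had 1.07 and 2.03 CPM in beta, 58.8 and 61.3 CPM in endothelial and 63.3 and 50.4 CPM in macrophage barcodes. Nlrc5, the transactivator of class I genes, was near the limit of detection in beta barcodes, with 0.0416 and 0.103 CPM, and highest in macrophage barcodes with 10.8 and 6.16 CPM. In delta barcodes of the library labelled BcBKO, Nlrc5 had 0 UMIs. Stat2 and Irf9 together with a partner form the factor that type I interferons activate, and their beta levels were 3.03 and 3.64 CPM and 3.22 and 4.02 CPM.

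The feedback inhibitors differed from each other. Usp18, which removes ISG15 from proteins and blocks the type I receptor, was the member most alike between classes, with 8.10 and 10.3 CPM in beta, 11.9 and 13.0 CPM in alpha, 21.7 and 20.7 CPM in endothelial and 14.1 and 15.7 CPM in macrophage barcodes. Mural barcodes had it at 4.38 and 13.0 CPM, its lowest class in the flox/flox library, with 1 UMI worth 0.876 and 1.45 CPM there. The endothelial to beta ratio of Usp18, 2.67 and 2.01, was the lowest of the 36 members in both libraries. Socs1, an inhibitor of JAK kinases, had 0.741 and 0.790 CPM in beta and 31.9 and 26.4 CPM in endothelial barcodes.

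The antiviral effectors had different peaks. Rsad2, which encodes viperin, was an endothelial transcript, with 206 and 245 CPM there against 7.01 and 13.0 CPM in mural and 37.2 and 49.8 CPM in macrophage barcodes. Bst2, which encodes tetherin, was highest in macrophage barcodes with 706 and 533 CPM, followed by endothelial barcodes with 418 and 394 CPM. Ifitm3, which blocks virus entry in endosomes, was highest in mural barcodes with 1631 and 2079 CPM, and Ifi27 was highest there too with 362 and 412 CPM. Isg15, a ubiquitin-like modifier, had 151 and 175 CPM in endothelial barcodes and 0.699 and 1.46 CPM in beta barcodes. Ifit3, which binds foreign RNA with its relatives, was highest in macrophage barcodes with 33.9 and 37.0 CPM. Ifih1, which encodes the RNA sensor MDA5, was low in beta barcodes, with 2.06 and 2.43 CPM. It had 27.5 and 37.3 CPM in alpha and 18.7 and 19.1 CPM in delta barcodes. In endothelial barcodes it stood 26.9-fold and 21.6-fold above beta. Of the GTPases, Gbp2, Gbp7, Igtp and Irgm1 were all highest in endothelial barcodes, Irgm1 with 90.0 and 59.7 CPM.

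In CPM over the whole rules, 31 of the 36 members had their lowest level in beta barcodes in both libraries, and 34 of 36 had their highest level in the same class in both. The median endothelial to beta ratio over barcodes of exactly 1 class was 28.9 for flox/flox and 21.4 for the library labelled BcBKO, beside 3.00 and 2.89 over genes at 20 CPM or more in either class; the first pair of medians takes all 36 members, whatever their level. Of the 35 members at 20 CPM or more in either class, 34 and 33 were over 5-fold higher in endothelial barcodes, against 28.4% of 6428 and 27.0% of 6452 genes. Only 9 of the 36 members reached 20 CPM in beta barcodes of either library. Most of the 35 thus passed the minimum through their endothelial level alone, which in part sets a high ratio in advance. These counts are therefore a description. The lowest place of beta cells rests in part on the scale, because insulin fills much of a beta cell's UMIs. With hormone and mitochondrial transcripts left out of the total, 18 members were lowest in beta in both libraries, and as mean UMIs per cell, where beta cells are deepest, 4 were. With cells thinned to 2000 UMIs the number was 27, and over barcodes of exactly 1 class it was 25.

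Beta barcodes also held some RNA of endothelial cells and macrophages, and for a few members a level set by it lay near the observed one. The median of 5 endothelial markers (Pecam1, Kdr, Flt1, Cd34, Emcn) stood in beta barcodes at 0.349% and 0.353% of its endothelial level, and that of 5 macrophage markers (C1qc, Cd68, Adgre1, Csf1r, Lyz2) at 0.110% and 0.137% of its macrophage level. These shares of each member's endothelial and macrophage CPM give a carried level. It reached 50% or more of the observed beta level in both libraries for 4 members, Isg15, Ifit2, Ifitm3 and Gbp2, and stayed under 20% in both for 25. For Isg15 the carried level was 93.2% and 53.0% of the observed one, so its beta level in the flox/flox library was close to the carried one. B2m stood at 33.0% and 27.0%, H2-K1 at 4.42% and 4.11%, Ly6e at 12.3% and 7.91%, and Usp18 at 1.12% and 0.914%. Those 4 were thus above the carried level in beta barcodes of both libraries, Usp18 by 89.0-fold and 109-fold.

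**Figure D3:**
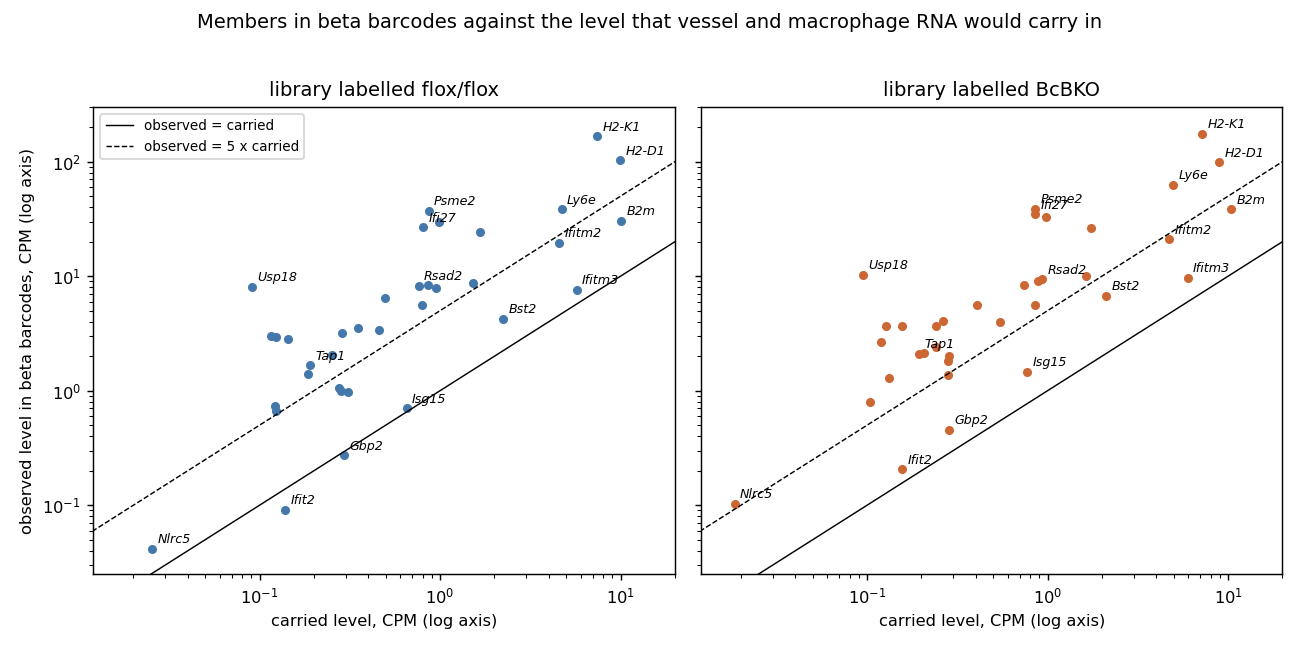
Observed CPM of each member in beta barcodes (y axis, log scale) against the CPM that endothelial and macrophage RNA at the marker shares would carry in (x axis, log scale), 1 point per member and 1 panel per library. In the flox/flox panel Isg15, Ifit2 and Gbp2 lie at or near the solid line of equal levels (the dashed line is 5 times the carried level), and in both panels Usp18, Psme2 and H2-K1 lie above the dashed line.

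The share of cells with several induced transcripts differed between classes. Such a share rises with the mean level, and unevenness beyond the mean was not tested. Over the 8 genes named next, thinned endothelial cells of exactly 1 class held a mean of 1.27 and 1.42 UMIs. Thinned beta cells held 0.0527 and 0.0618. Taking 8 genes together (Isg15, Ifit1, Ifit3, Rsad2, Usp18, Oasl2, Rtp4 and Irf7) and thinning each cell to 2000 UMIs, 15.1% (95% exact binomial interval 13.1 to 17.3) of endothelial cells of exactly 1 class from flox/flox islets and 15.4% (13.2 to 17.9) of those labelled BcBKO held 3 or more UMIs. In macrophage cells the shares were 4.85% (2.99 to 7.40) and 7.06% (4.53 to 10.4), and in mural cells 4.27% (1.97 to 7.94) and 6.54% (3.18 to 11.7). The intervals of the 2 libraries overlapped in each of these classes. Of beta cells, 1 of 2750 (0.0364%) and 5 of 3058 (0.164%) reached that number, and of delta cells 0 of 276 and 1 of 369. The 0 allows a share of up to 1.09% by a limit of 3 counts and 1.33% by the exact binomial interval. Whole rules and unthinned cells gave 49.2% and 47.4% in endothelial and 10.0% and 10.9% in beta cells, at median depths of 5623 and 5387 against 38461.5 and 33171.5 UMIs.

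**Figure D4:**
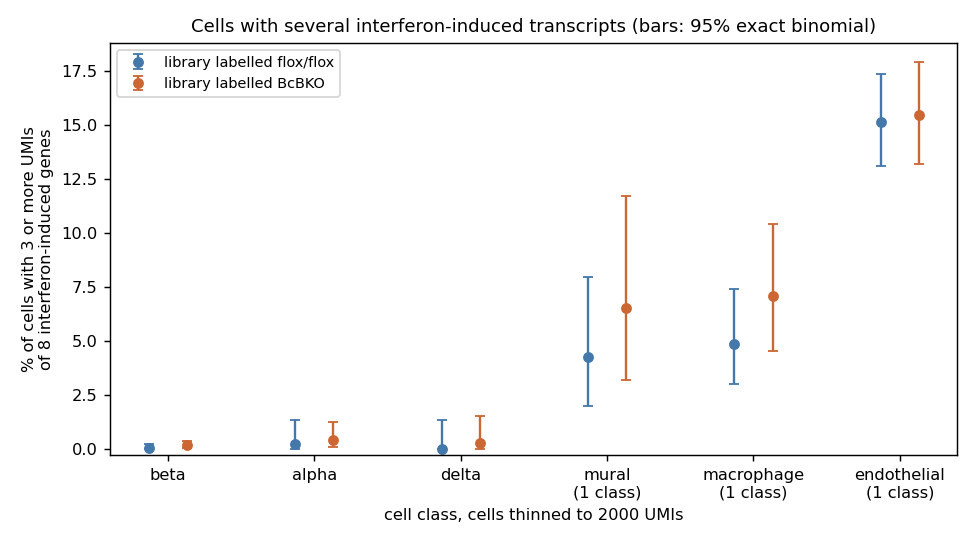
Percent of cells with 3 or more UMIs summed over 8 interferon-induced genes (y axis) after thinning to 2000 UMIs, by cell class (x axis) and library (colour); points are shares and bars are 95% exact binomial intervals. Endothelial shares stand near 15.1%, mural and macrophage shares between 4.27% and 7.06%, and the endocrine classes near 0.

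A few beta barcodes carried a broad response. Without thinning, 16 of 2750 beta barcodes of the flox/flox library (0.582%) and 34 of 3058 of the library labelled BcBKO (1.11%) held 10 or more UMIs of the 8 genes, and these barcodes held 12.8% and 22.5% of all such UMIs in the class. Of them, 9 and 16 had at most 2 UMIs of endothelial and at most 2 of macrophage markers. The richest barcode of the flox/flox library had 163 UMIs over all 8 genes, with 72 of Rsad2, 38 of Ifit3, 20 of Ifit1 and 4 of Isg15. It was 65.4% insulin, had 0 UMIs of the endothelial and 3 of the macrophage markers, and was not called a doublet. The richest of the library labelled BcBKO had 158 UMIs over 7 genes, with 42 of Ifit3, 40 of Ifit1, 38 of Rsad2 and 0 of Isg15. Barcodes with 7 or 8 of the genes numbered 1 and 6, of which 0 and 1 were called doublets. In the library labelled BcBKO 2 of the 6 held over 50 UMIs of other cells' markers: 107 of macrophage markers in a barcode not called a doublet, and 146 of endothelial markers in the called one. Other barcodes held a single transcript: 1 and 4 had Rsad2 alone, at 22 and at 14 to 24 UMIs. Class I genes were higher in the broad group: beta barcodes with 4 or more of the 8 genes and few endothelial and macrophage marker UMIs, 3 and 12 in number, had B2m at 265 and 81.1 CPM and H2-K1 at 584 and 273 CPM, against class levels of 30.5 and 38.5 CPM and 168 and 176 CPM. A single flox/flox barcode, 29.3% insulin, held 53 of the 75 H2-K1 UMIs and 20 of the 34 B2m UMIs. Without the barcode richest in H2-K1 in each library, H2-K1 had 304 and 248 CPM and B2m 194 and 76.7 CPM. These cells were picked by the measured levels of other members, so the values are a description.

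Of the ligand genes, Ifng and Ifnb1 were detected. Ifng, the gene of interferon gamma, lay mostly outside the 6 classes, which held 5 and 24 of its UMIs. It had 88 UMIs in 27 barcodes of the flox/flox library, 83 of them in barcodes with T-cell or NK-cell markers. In the library labelled BcBKO it had 195 UMIs in 45 barcodes, 186 of them in barcodes with those markers, and 1 barcode held 57. Barcodes with T or NK markers numbered 100 and 186, of which 24 and 37 held Ifng. Ifnb1, a type I interferon gene, had 12 and 6 UMIs, all of them in barcodes of the 6 classes, and Ifna1, Ifna2, Ifna4, Ifnl2 and Ifnl3 had 0 in both libraries. The receptor genes were present in every class: Ifnar1 had 5.23 and 5.36 CPM in beta and 66.2 and 61.6 CPM in macrophage barcodes, and Ifngr1 had 7.39 and 6.82 CPM in beta, 221 and 213 CPM in endothelial and 268 and 209 CPM in macrophage barcodes. Jak1, a kinase of both receptor types, had 40.5 and 41.9 CPM in beta barcodes.

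Between the libraries, the members at 20 CPM or more in beta cells differed little, apart from Ly6e. Of the 36 members, 9 reached 20 CPM in either library, and 8 of those 9 were higher in the library labelled BcBKO, beside 71.1% of all 2938 genes at that level. Their median log2 ratio (of CPM plus 1, BcBKO over flox/flox) was 0.11 (0.04 to 0.20), beside 0.06 over all genes. The bounds after such a median, here and for the other classes, are the medians of the members' lower and upper 95% counting bounds. They are not an interval of the median itself. Past 1.5-fold was 1 member, higher, beside 0.749% of all genes higher and 0.272% lower. With TMM scaling, which sets the typical gene near 0, the members' median was 0.03 and that of all genes -0.02, and 6 of the 9 were above 0.

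Ly6e, a membrane protein that blocks fusion of several viruses, had 38.4 CPM in flox/flox beta barcodes and 62.9 CPM in beta barcodes labelled BcBKO, a ratio of 1.64 (1.58 to 1.70). Among barcodes with few endothelial and macrophage marker UMIs the ratio was 1.68. By depth of the beta barcode it was 1.55 at 20000 to 40000 UMIs, 1.65 at 40000 to 60000 and 1.79 above, but 0.908 at 10000 to 20000 UMIs, where the flox/flox library had 64 barcodes and the other 241. Ly6e was higher in the library labelled BcBKO in alpha barcodes too, with 87.1 and 122 CPM, and in delta barcodes, with 119 and 143 CPM. In endothelial barcodes it had 1060 and 1078 CPM.

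Next in beta cells came Ifi27, an interferon-induced protein of the nuclear and mitochondrial membranes, with 26.8 and 34.7 CPM, a ratio of 1.29 (1.24 to 1.36), and B2m with 30.5 and 38.5 CPM, a ratio of 1.26 (1.21 to 1.32). By depth the ratio of B2m ran from 1.18 to 1.29 above 20000 UMIs and was 0.621 at 10000 to 20000 UMIs, with 85.1 and 52.9 CPM. At the other end were H2-D1 with 103 and 99.4 CPM (a ratio with interval 0.946 to 0.994), Psme2 with 37.2 and 38.9 CPM, and H2-K1 with 168 and 176 CPM (1.05, 1.03 to 1.07). The light chain and the heavy chains of class I thus did not differ by the same ratio. Members under the minimum level included Bst2 with 4.24 and 6.73 CPM, Isg15 with 0.699 and 1.46 CPM and Irf7 with 1.07 and 2.03 CPM. Ifit3 had 0.666 and 1.29 CPM, Oasl2 1.40 and 2.15 CPM, and Rtp4 0.999 and 1.81 CPM. Among those that were lower was Tap2, with 6.47 and 5.61 CPM. The carried level of Bst2 in beta barcodes was 2.24 and 2.12 CPM, which is 52.9% and 31.5% of the observed level. That of Isg15 was 0.652 and 0.773 CPM, or 93.2% and 53.0%. The part of the carried level in the ratios of Bst2 and Isg15 was not tested.

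In alpha cells B2m stood nearest the threshold. It had 56.7 and 85.5 CPM, a ratio of 1.51 (1.33 to 1.71) that fell just under 1.5-fold once 1 CPM was added to both. Over alpha barcodes of exactly 1 class B2m had 43.1 and 66.5 CPM, a ratio of 1.54. The 8 members at 50 CPM or more were all higher in the library labelled BcBKO, with a median log2 ratio of 0.12 (-0.02 to 0.30) beside 0.08 over all genes, and 0 passed 1.5-fold, beside 0.562% of all genes higher and 0.307% lower. With TMM scaling 5 of the 8 were higher. After B2m and Ly6e came H2-K1 with 265 and 309 CPM, and the least different were Psme2 with 77.2 and 81.5 CPM, H2-D1 with 214 and 227 CPM and Ifitm2 with 110 and 118 CPM. Endothelial marker RNA stood in alpha barcodes at 0.611% and 0.964% of its endothelial level, which moves the same way as B2m. Its part in the whole-rule value was not tested, and the ratio was 1.58 over barcodes with few endothelial and macrophage marker UMIs.

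In delta cells the members had no shared direction. Of 10 at 50 CPM or more, 4 were higher in the library labelled BcBKO, with a median log2 ratio of -0.11 (-0.25 to 0.16) beside -0.03 over all genes, and 0 passed 1.5-fold, beside 0.344% of all genes higher and 0.841% lower. B2m was again the highest, with 62.8 and 86.6 CPM (1.38, 1.16 to 1.64), and after Ly6e came Tapbp with 85.8 and 86.6 CPM. The lowest were Psme2 with 125 and 101 CPM (0.809, 0.706 to 0.926), H2-D1 with 350.3 and 296 CPM and Ifi27 with 55.3 and 50.3 CPM. Endothelial marker RNA stood in delta barcodes at 0.602% and 0.821% of its own level and macrophage marker RNA at 0.213% and 0.526%, and the carried level of B2m was 17.9 and 29.1 CPM. Their part in its ratio was not tested; over delta barcodes with few such UMIs B2m had 46.9 and 63.2 CPM, a ratio of 1.35. Over each whole class B2m had higher CPM in the library labelled BcBKO in all 3 endocrine classes, except in the shallowest beta barcodes, while H2-D1 did so in alpha alone.

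In endothelial cells, where most members are well measured, the libraries were close except for a few genes. Of 26 members at 50 CPM or more, 12 were higher in the library labelled BcBKO, with a median log2 ratio of -0.03 (-0.13 to 0.07) beside -0.02 over all genes. Past 1.5-fold was 1, lower, beside 0.725% of all genes higher and 1.6% lower. It was Irgm1, a GTPase that acts on membranes of vacuoles that hold microbes, with 90.8 and 58.6 CPM, 1.55-fold lower. Irf1 followed with 211 and 146 CPM, 1.44-fold lower, and Tap2 with 112 and 91.2 CPM. The highest were Gbp7 with 125 and 145 CPM (1.16, 1.08 to 1.24), Rsad2 with 183 and 200 CPM and Isg15 with 149 and 160 CPM. Over barcodes of exactly 1 class Irgm1 had 90.0 and 59.7 CPM, 1.51-fold lower, which no longer passed 1.5-fold once 1 CPM was added to both. All 10 immediate-early genes of dissociated cells were also lower in endothelial barcodes of the library labelled BcBKO, with a median log2 ratio of -0.26, for instance Atf3 with 679 and 464 CPM. Their part in the values of Irf1 and Irgm1 was not tested. The class I chains B2m, H2-K1 and H2-D1 were lower by 1.08-fold, 1.10-fold and 1.15-fold.

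**Figure D5:**
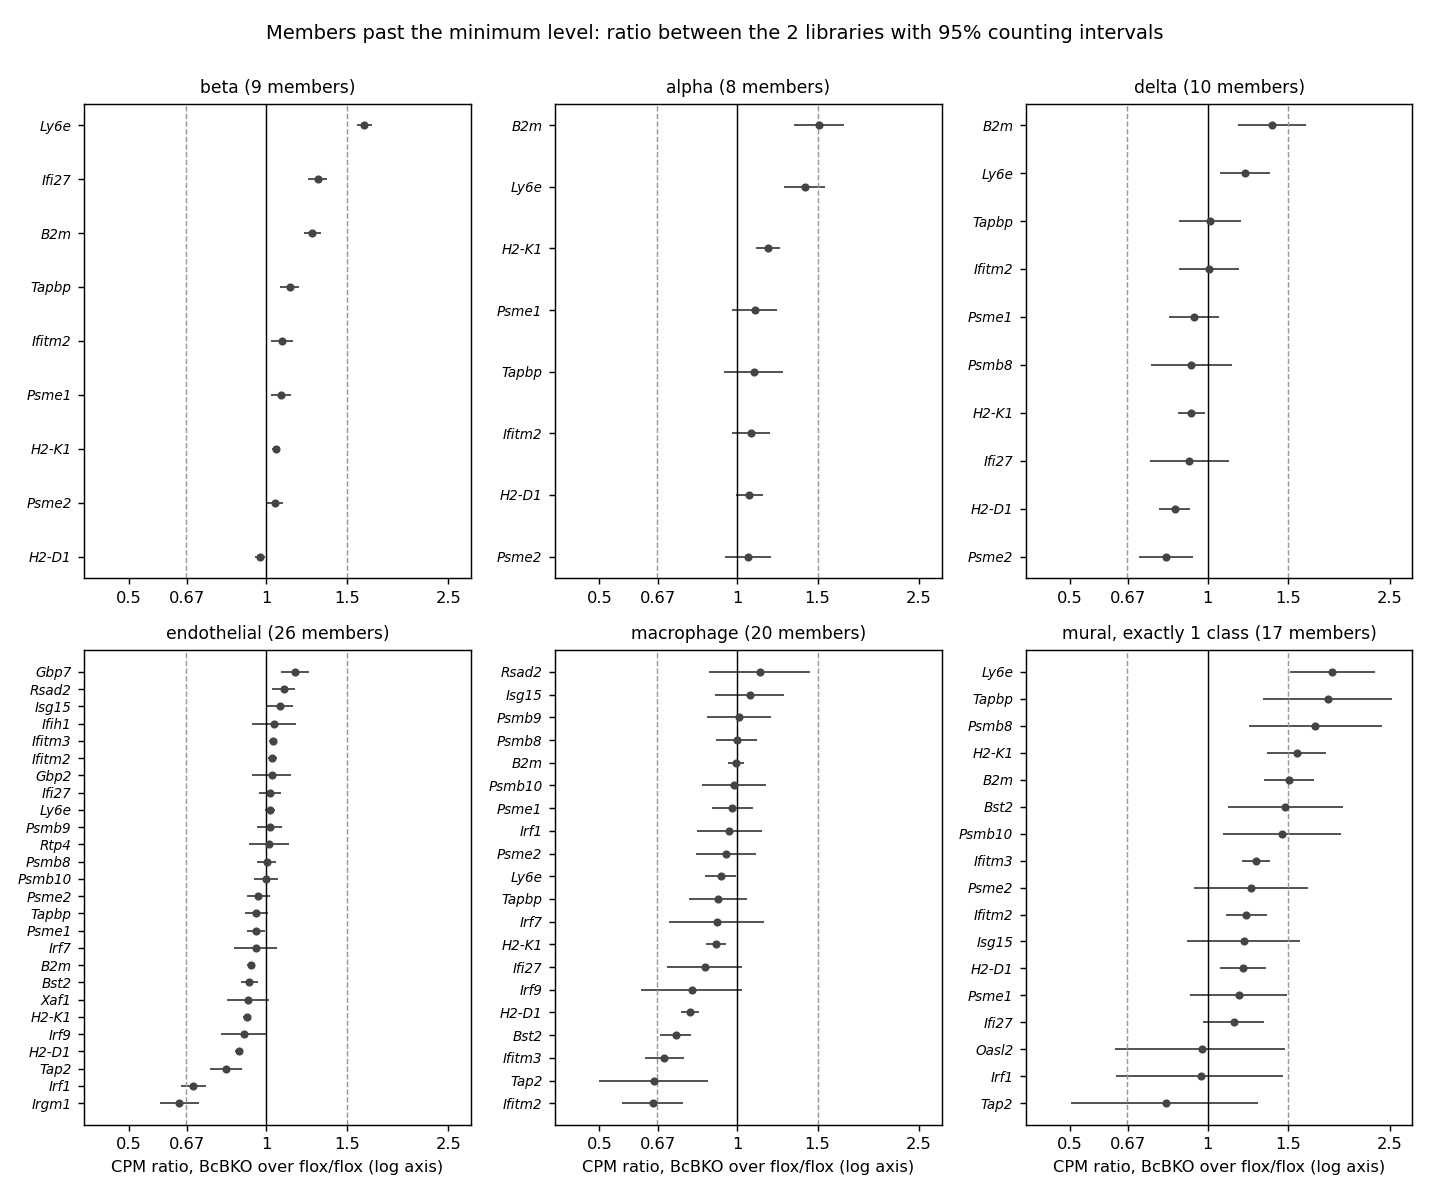
Ratio of CPM, BcBKO over flox/flox (x axis, log scale), for the members past the minimum level in each class (1 panel per class), with 95% exact conditional intervals from the UMI counts and dashed lines at 1.5-fold. Endothelial and macrophage panels hold the whole rule. Ly6e stands at 1.64 in beta, B2m leads in alpha and delta, Irgm1 and Irf1 lie lowest in endothelial, and the mural panel is shifted to the right.

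In macrophages most members were lower in the library labelled BcBKO, as were most genes. Of 20 members at 50 CPM or more, 3 were higher, with a median log2 ratio of -0.13 (-0.30 to 0.06) beside -0.08 over all genes, 35.4% of which were higher. With TMM scaling 9 of the 20 were higher, and with hormone and mitochondrial transcripts left out of the total 8 were. Past 1.5-fold were 2, both lower, beside 0.992% of all genes higher and 6.69% lower. They were Ifitm2, a relative of Ifitm3, with 167 and 109 CPM, 1.53-fold lower, and Tap2 with 53.9 and 35.4 CPM, 1.52-fold lower. With either of those scalings 0 passed. Both were under 1.5-fold over barcodes of exactly 1 class, where Ifitm2 had 101 and 71.1 CPM. Ifitm3 had 377 and 261 CPM, and Bst2 had 608 and 446 CPM, 1.36-fold lower. The 8 endothelial markers summed to 1126 and 572 CPM in macrophage barcodes of the whole rule and to 35.2 and 31.4 CPM in those of exactly 1 class. Highest were Rsad2 with 45.1 and 50.6 CPM, Isg15 with 95.7 and 102 CPM and Psmb9 with 118 and 119 CPM. Below the minimum level, Gbp2 had 40.8 and 17.7 CPM, with a ratio of 0.434 (0.297 to 0.622), and Gbp7 had 30.7 and 13.8 CPM, with a ratio of 0.450 (0.292 to 0.679). These 2 were 2.08-fold and 2.13-fold lower over barcodes of exactly 1 class; they were singled out after their values had been seen.

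In mural cells the result turned on which barcodes were taken. Over the whole rule, 15 of 26 members were higher in the library labelled BcBKO, with a median log2 ratio of 0.02 (-0.11 to 0.14) beside -0.02 over all genes, and 0 passed 1.5-fold, beside 0.776% of all genes higher and 1.19% lower. The highest were Ifih1 with 46.9 and 54.7 CPM, Gbp7 with 113 and 131 CPM and Gbp2 with 59.2 and 65.1 CPM. The lowest were Irgm1 with 82.2 and 55.2 CPM, Irf1 with 174 and 127 CPM and Irf7 with 53.4 and 43.7 CPM. Over the barcodes that met the mural rule alone, 14 of 17 members were higher, with a median of 0.31 (0.11 to 0.67) beside 0.00 over all genes. Past 1.5-fold were 5, all higher, beside 4.56% of all genes higher and 5.47% lower. They were Ly6e with 145 and 270 CPM, Tapbp with 65.7 and 120 CPM, Psmb8 with 64.0 and 110 CPM, H2-K1 with 328 and 512 CPM and B2m with 447 and 673 CPM. The make-up of these barcodes also differed between the libraries. Collagen genes of fibroblasts were higher in the library labelled BcBKO, Col3a1 with 285 and 890 CPM and Col1a1 with 35.1 and 255 CPM, while Acta2, of contractile cells, had 4819 and 3205 CPM. Over the 179 and 122 mural barcodes with fewer than 3 UMIs of Col1a1 and Col3a1, 2 of 18 members passed 1.5-fold, both higher, beside 6.13% of all genes higher and 7.27% lower. They were Tapbp with 55.3 and 117 CPM and Ly6e with 143 and 245 CPM. B2m then had 402 and 486 CPM, a ratio of 1.21, and H2-K1 303 and 453 CPM, a ratio of 1.49. With Acta2 taken as a divider at 10 UMIs, the median log2 ratio was 0.26 below and 0.36 from there up. Below it 3 of 19 members passed 1.5-fold, Bst2 and Tapbp higher and Ifit1 lower, beside 13.8% of all genes higher and 11.3% lower, so the members' share was under the background. From there up 5 of 18 passed, all higher, beside 6.6% of all genes higher and 8.18% lower.

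The other genes of the pathway moved as little. Of 42 genes (ligands, receptors and kinases, other factors and sensors, other class I and loading genes, constitutive proteasome genes and other induced genes), 8 reached the minimum level in beta, 9 in alpha, 10 in delta, 21 in endothelial, 20 in mural and 18 in macrophage barcodes of the whole rules. In 5 of the 6 classes 0 passed 1.5-fold, beside the shares of all genes given above for each class. In macrophage barcodes 1 of 18 did, the non-classical class I gene H2-T22 with 62.7 and 40.2 CPM. That stands beside 0.992% of all genes higher and 6.69% lower in that class. All 8 in beta were higher in the library labelled BcBKO, with a median log2 ratio of 0.13. Of all 2938 genes at that level in beta, 71.1% were higher, with a median of 0.06. Isg20, an exonuclease gene, was the induced gene that beta cells held above vessel cells, with 57.4 and 60.2 CPM in beta against 17.7 and 25.6 CPM in endothelial barcodes. Mx2 was not analysed here.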

How the data were processed

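Islet cells were captured with a 10x 3′ kit, and the authors deposited a matrix of UMI counts per gene and barcode for each of the 2 libraries. Per the submitters' processing notes, Cell Ranger 3.1.0 and Seurat 4.0.0 were used on mm10, while the file header names cellranger 6.1.2; the sources used here do not settle which version produced the matrices, and the annotation is not given in the sources used here. The members, lists and rules were chosen with earlier results of these data known.

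Barcodes with at least 500 genes and 1000 UMIs and at most 20% mitochondrial UMIs were kept. Beta barcodes had at least 25% of UMIs from Ins1 and Ins2, at least 10000 UMIs and under 1% each of Gcg, Sst and Ppy. The other classes had under 15% insulin UMIs and Gcg from 10% (alpha), Sst from 5% (delta), 3 UMIs of Plvap and Cdh5 (endothelial), 5 of Rgs5 and Pdgfrb (mural) or 5 of C1qa and C1qb (macrophage). A barcode could meet several rules. Doublets were kept in the main values; Scrublet in scanpy 1.11.5 called 170 (2.25%) and 178 (2.09%).

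UMIs were summed per class and library and divided by the class total (CPM). The class totals ran from 120173034 UMIs (beta, flox/flox) to 2314212 (macrophage, BcBKO), and mural barcodes of exactly 1 class had 1141210 and 691360, so mural values are the least precise. Members were compared from 20 CPM in either library in beta and 50 CPM in the other classes, on log2 of CPM plus 1; this understates ratios of low genes. Called means past 1.5-fold. Intervals are exact Poisson, exact conditional and exact binomial (Clopper-Pearson) at 95%, and a count of 0 allows up to 3 counts. The bounds after a median log2 ratio are medians of the members' single bounds, taken from ratios without the added 1 CPM. Values in both libraries are given for the 3 highest and 3 lowest log2 ratios in each class and for B2m, H2-K1, H2-D1, Tap1, Psmb8, Psmb9, Psme1, Irf1, Irf7, Isg15, Ifit3, Bst2, Ifitm3, Ifi27 and Nlrc5. Alternatives were other scalings (TMM from edgeR 4.0.16), pseudocounts, minimum levels, filters and class rules, doublet removal and thinning. The scripts ran in Python 3.11.15 and R 4.3.3 and were tested on simulated data.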

Additional observations from a re-analysis of the deposited data

Results flagged for a closer look

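Ifng lies outside the comparisons of the 6 classes, which hold few of its UMIs, and its total of UMIs differed between the libraries. It had 195 UMIs over all kept barcodes of the library labelled BcBKO, against 88 in the flox/flox library. Of these, 186 and 83 lay in the 186 and 100 barcodes that held T-cell or NK-cell markers. A single barcode labelled BcBKO held 57 UMIs. Ifng was found in 37 of those 186 barcodes and in 24 of those 100.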

How the results depend on the processing

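Each group is 1 library, so the values carry no error between mice, and no replicate could be left out. No paired analysis was possible because each group is 1 library and no test was made. Of the alternative values of the main results, 172 stayed within their limits and 50 moved. The median log2 ratio in beta was 0.032 with TMM and 0.011 at a minimum of 100 CPM, where 2 members remain; in mural barcodes it was 0.31 over exactly 1 class, 0.25 under 3 collagen UMIs, and 0.26 and 0.36 under and from 10 Acta2 UMIs. The numbers of members past 1.5-fold follow, with the numbers over all genes at the same setting in brackets. In beta, 1 of 9 (30 of 2938) became 0 of 2 (10 of 474) at 100 CPM. It became 3 of 9 (124 of 2938) at a lower threshold, a ratio 25% above 1 or its inverse. In alpha, 0 of 8 (17 of 1957) became 4 of 36 (1146 of 17100) with no minimum. It became 2 of 8 (110 of 1957) at the lower threshold. It was 1 of 8 with the stricter cell filter (18 of 1971), thinning (34 of 2028) or few other-cell markers (18 of 1947). It was 1 of 7 with doublets removed (17 of 1938) or exactly 1 class (19 of 1918). In delta, 0 of 10 (31 of 2617) became 5 of 36 (1869 of 16474) with no minimum. At the lower threshold it was 1 of 10 (196 of 2617). In endothelial barcodes, 1 of 26 (80 of 3448) became 0 of 19 (54 of 1777) at 100 CPM. Over exactly 1 class it was 0 of 26 (76 of 3342), and at the lower threshold 2 of 26 (221 of 3448). In mural barcodes, 0 of 26 (71 of 3607) became 5 of 17 (363 of 3618) over exactly 1 class. It was 1 of 27 (79 of 3617) with stricter classes. With thinning (128 of 3688) and at the lower threshold (253 of 3607) it was 2 of 26. Under 3 collagen UMIs it was 2 of 18 (492 of 3671). Under and from 10 Acta2 UMIs it was 3 of 19 (Ifit1 lower, 945 of 3758) and 5 of 18 (542 of 3668). In macrophage barcodes, 2 of 20 (186 of 2420) became 0 with TMM (169 of 2420) and without hormone and mitochondrial genes (163 of 2401). It was 0 of 21 over exactly 1 class (114 of 2287) and with stricter classes (156 of 2367). It was 1 of 20 with a pseudocount of 5 (167 of 2420) and 1 of 15 at 100 CPM (74 of 1124). With no minimum it was 6 of 36 (3515 of 16090), and at the lower threshold 5 of 20 (535 of 2420). As mean UMIs per cell over the whole rules, the highest level was in the mural class for 32 and 31 members and in endothelial for 1 and 1. It was in macrophage for 2 and 2, in beta for 1 and 1, and in alpha for 1 in the library labelled BcBKO. Of the whole-rule mural barcodes, 71.7% and 74.9% also met the endothelial rule, with median depths of 11648 and 9533 UMIs. These numbers thus do not describe barcodes of the mural rule alone. Without hormone and mitochondrial genes the highest level was in beta for 1 and 1 and in alpha for 1 in the library labelled BcBKO. The share of cells with several induced transcripts was 0% in flox/flox alpha cells with the stricter filter, and 4.27% and 6.54% in mural cells of exactly 1 class. The cause was not tested. The limits on other markers, collagen and Acta2, and exactly 1 class for the highest levels, were chosen after seeing the data.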
